A study of Mus musculus with 6 samples.

Results

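The interleukin-1 (IL-1) family genes described here are 9 of the 38720 rows of a gene table: the ligands Il1a, Il1b, Il18 and Il33, the receptor antagonist Il1rn, and the receptor genes Il1r1, Il1r2, Il1rap and Il1rl1. They were chosen by gene symbol. The libraries came from the neck region of the gastric corpus, cut from unfixed frozen stomach sections by laser capture microdissection. There were 3 Cldn18 knockout libraries (genotype CLDN18-/-) and 3 wild-type libraries (CLDN18+/+), all from B6:129S5 mice with no treatment named. Claudin 18 belongs to the proteins that seal the tight junctions between stomach epithelial cells. The sample labels give an age of 7 weeks for all mice and the series design text gives 7 days, so the age is not settled here. The deleted part of Cldn18 and the number of mice behind a library are not given here. No label ties the libraries to different mice, so the p-values reflect the spread among these 6 libraries, and that spread may be technical.

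IL-1 alpha and IL-1 beta bind the receptor IL-1R1, which then recruits the accessory protein IL-1RAcP (Il1rap) and signals through MyD88 and IRAK kinases to NF-kB. The antagonist encoded by Il1rn occupies IL-1R1 without recruiting the accessory protein, and the decoy receptor encoded by Il1r2 binds ligand without signalling. IL-33, a nuclear protein released from damaged cells, acts through ST2 (Il1rl1) and the same accessory protein, while IL-18 has its own receptor pair. IL-1 beta and IL-18 are made as precursors and are cut by caspase-1 in inflammasomes. In the mouse stomach, IL-1 beta is known for blocking acid secretion and for driving inflammation, and IL-33 is known as an alarmin of injured corpus epithelium.

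The libraries held 37673283 to 52842813 recovered reads, of which the single locus Gm26924 took 38.6% to 45.4%. Cldn18 itself stood at 13035, 16798 and 15818 normalized counts in the knockout libraries, against 30498, 21210 and 23241 in the wild-type libraries (log2 difference -0.71 ± 0.20 SE; limma adjusted p = 0.0134). Its call was lost without knockout replicate 1 (adjusted p = 0.0896). Reads of the gene remained in the knockout, so it checks only the direction of the labels. All 5 markers of mucous neck cells, which mark the captured region, were read in each library. Of these Gkn3, Dmbt1 and Aqp5 were higher in the knockout (log2 differences 2.69, 3.63 and 3.57), Muc6 was lower (-1.71) and Tff2 was not called (limma). Their sum was 89215 to 185842 normalized counts in the knockout, against 76556 to 98976 in wild-type, and its part in the family's differences was not tested. Markers of other gastric cells were read as well. In wild-type the chief cell list summed to 1732844 to 2789966 and the surface and pit list to 882140 to 1496213. In bulk samples such as these, fewer cells of a type and less RNA per cell cannot be told apart.

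Of the 9 genes, 8 passed the filter of at least 10 normalized counts in at least 3 of the 6 libraries, which a gene can pass on the libraries of 1 group alone. Il1a, Il1b, Il33, Il1rn, Il1r1 and Il1rl1 were higher in the knockout, none was called lower, and Il18 and Il1rap were not called (limma, adjusted p under 0.05). With 0 lower by limma, edgeR and DESeq2 alike, 1 gene, Il1rap, was lower at an unadjusted limma p under 0.05. These 6 of 8 stand beside a background of 23.3% of 17432 genes called higher, with 21.5% called lower and 44.7% called in either direction. Il1a reached 10 normalized counts in no wild-type library, so it was tested only because its knockout libraries passed. Il1rn, at 7.41 in wild-type replicate 2, had fewer than 3 wild-type libraries at 10 and also needed the knockout to pass. The count of higher members and the median that follows rest in part on these genes. The median log2 difference was 2.37 for the 8 genes and -0.02 for all genes tested. The 3 knockout values lay wholly to one side of the 3 wild-type values in 7 of the 8, 6 times above and once below. Over all genes tested the share without overlap was 55.2%, with the knockout all above in 28.1% and all below in 27.1%.

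**Figure D1:**
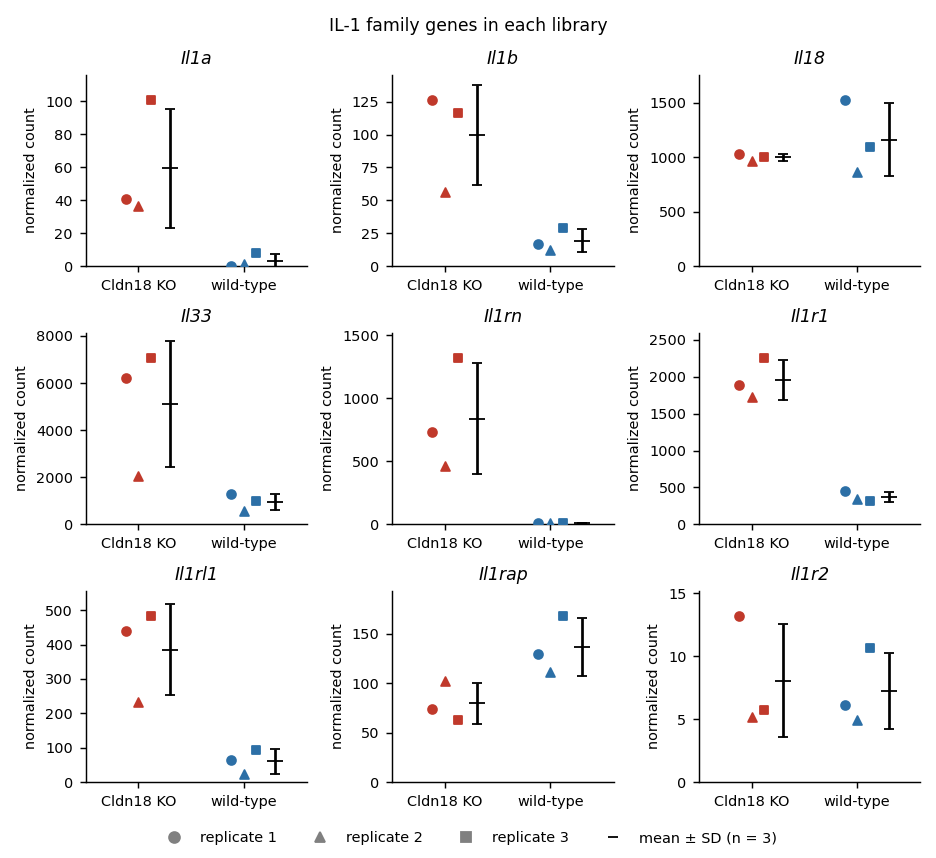
Normalized counts of the 9 IL-1 family genes in each library, with Cldn18 knockout libraries on the left and wild-type libraries on the right of each panel; circles, triangles and squares mark replicates 1, 2 and 3 and the bar the mean ± SD (n = 3). For Il1rn the knockout libraries sit between 462.5 and 1322, all above the wild-type libraries, while the groups overlap for Il18 and Il1r2.

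Of the 4 ligands, Il1a, Il1b and Il33 rose and Il18 was not called. Il1a (ENSMUSG00000027399.1, chromosome 2, 129299610 to 129309972, minus strand, mm10) encodes IL-1 alpha, which is active without caspase-1. It had 40.6, 36.2 and 101 normalized counts in knockout replicates 1, 2 and 3, against 0, 1.235 and 7.77 in wild-type replicates 1, 2 and 3. The wild-type values rest on 0, 1 and 8 reads, so they lie near the limit of detection, where a count of 0 allows up to 3.67 normalized counts (3 reads in replicate 1, counting error only). The lowest knockout library was still above the highest wild-type library, and the log2 difference was 4.32 ± 0.86 (SE; limma adjusted p = 0.00223).

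Il1b (ENSMUSG00000027398.13, chromosome 2, 129364570 to 129371139, minus strand) encodes IL-1 beta. It had 127, 56.15 and 116 normalized counts in knockout replicates 1, 2 and 3, against 17.1, 12.35 and 29.1 in wild-type replicates 1, 2 and 3. The groups did not overlap, and replicate 2 was the lowest library within each group. The means were 99.7 ± 38.0 in the knockout and 19.5 ± 8.6 in wild-type (SD, n = 3 each), a log2 difference of 2.29 ± 0.47 (SE; limma adjusted p = 0.00279).

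Il33 (ENSMUSG00000024810.16, chromosome 19, 29925114 to 29960718, plus strand) encodes IL-33. It had 6213, 2052 and 7081 normalized counts in knockout replicates 1, 2 and 3, against 1271, 575 and 1004 in wild-type replicates 1, 2 and 3. All knockout libraries were above all wild-type libraries, and replicate 2 was again the lowest of each group. The gap was 2.31 ± 0.43 on the log2 scale (SE; limma adjusted p = 0.00141). Without wild-type replicates 2 and 3, which leaves a single wild-type library whose variation has to be borrowed from the knockout, the difference was 1.82 and the call was lost (adjusted p = 0.0511).

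Il18 (ENSMUSG00000039217.13, chromosome 9, 50554827 to 50581840, plus strand) did not pass the test. It had 1030, 964 and 1004 normalized counts in knockout replicates 1, 2 and 3, against 1529, 863 and 1095 in wild-type replicates 1, 2 and 3. The knockout libraries lay inside the wild-type range (log2 difference -0.18 ± 0.20 SE; limma adjusted p = 0.494). The sign depended on wild-type replicate 1: the difference was 0.04 without it (adjusted p = 0.858) and -0.61 against it alone (adjusted p = 0.0193).

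The antagonist gene showed the largest difference of the 8. Il1rn (ENSMUSG00000026981.15, chromosome 2, 24336853 to 24351494, plus strand) had 733, 462.5 and 1322 normalized counts in knockout replicates 1, 2 and 3, against 13.5, 7.41 and 10.7 in wild-type replicates 1, 2 and 3. The wild-type values rest on 11, 6 and 11 reads and were low in all 3 libraries. The ratio of the group means was 79.8, and the log2 difference was 6.09 ± 0.40 (SE; limma adjusted p = 2.05e-06). Secreted and intracellular forms of the antagonist come from different first exons, and a count per gene cannot tell them apart.

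The signalling receptors of IL-1 and IL-33 rose too. Il1r1 (ENSMUSG00000026072.12, chromosome 1, 40225080 to 40317257, plus strand) had 1893, 1727 and 2259 normalized counts in knockout replicates 1, 2 and 3, against 448, 338 and 316 in wild-type replicates 1, 2 and 3. The spread within each group was small beside the gap between them, and the SE of its log2 difference was the smallest of the 8 (2.42 ± 0.18 SE; limma adjusted p = 4.02e-06). Il1rl1 (ENSMUSG00000026069.15, chromosome 1, 40429570 to 40465415, plus strand), which encodes the IL-33 receptor ST2, had 438, 234 and 483.5 normalized counts in knockout replicates 1, 2 and 3, against 63.65, 24.7 and 95.2 in wild-type replicates 1, 2 and 3. The groups did not overlap, and the log2 difference was 2.76 ± 0.46 (SE; limma adjusted p = 0.000808). Membrane-bound ST2 and its soluble decoy form are read as 1 gene in these counts.

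The shared accessory chain and the decoy receptor did not follow. Il1rap (ENSMUSG00000022514.14, chromosome 16, 26581704 to 26730117, plus strand) had 73.7, 103 and 62.5 normalized counts in knockout replicates 1, 2 and 3, against 129.8, 111 and 168 in wild-type replicates 1, 2 and 3. Every knockout value was below every wild-type value, but the call missed the threshold (log2 difference -0.78 ± 0.30 SE; limma adjusted p = 0.06). It was passed without knockout replicate 2 (-0.97, adjusted p = 0.0461) and without wild-type replicate 2 (-0.91, adjusted p = 0.0440). Il1r2 (ENSMUSG00000026073.13, chromosome 1, 40074079 to 40125231, plus strand) had 13.2, 5.17 and 5.77 normalized counts in the knockout libraries, against 6.12, 4.94 and 10.7 in the wild-type libraries, overlapped fully and was too low to test.

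**Figure D2:**
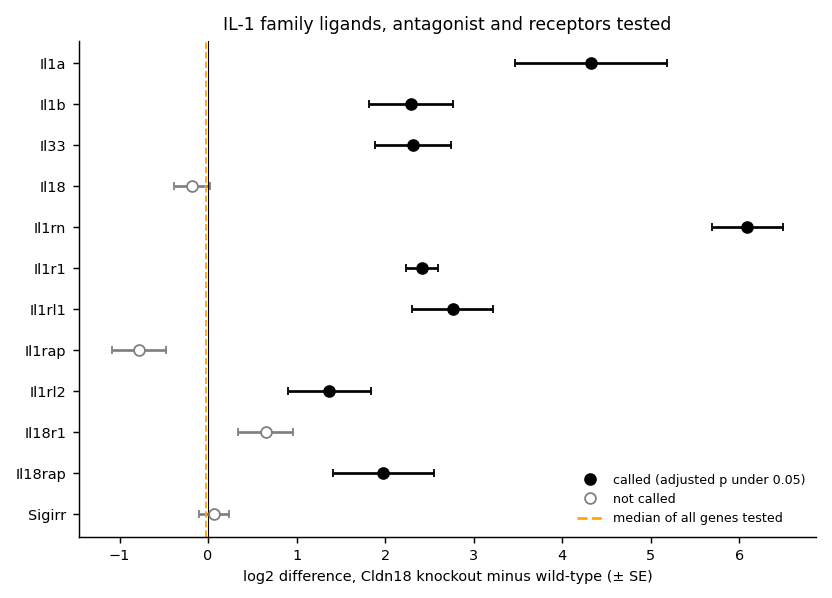
Log2 differences (Cldn18 knockout minus wild-type, bars ± SE) of the 8 tested members and of 4 other IL-1 family receptor genes, with filled points for genes called at adjusted p under 0.05. Il1rn lies at 6.09 and Il1r1 has the shortest bar of the 8, while Il18 and Il1rap lie at -0.18 and -0.78 and were not called.

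In the authors' deposited table, which holds a test of its own on the same libraries, the same 6 genes had an adjusted p under 0.05. The fold changes (knockout over wild-type) in the authors' deposited table were 19.7 for Il1a, 5.1 for Il1b, 5.38 for Il33, 79.8 for Il1rn, 5.33 for Il1r1 and 6.3 for Il1rl1. Il1rap, at a fold of 0.584, had an adjusted p of 0.172 in the authors' deposited table, and Il18, at 0.86, had 0.864.

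In the annotation 3 of the genes share exonic bases with a gene on the other strand, and no source names the strandedness of the counts. Il1a overlaps Gm14023 over 222 bases, Il1b overlaps Il1bos over 25 bases, and Il1rap overlaps Gm20319 over 552 bases. Gm14023 itself stood at 17.9, 9.6 and 4.81 normalized counts in the knockout libraries, against 11.02, 11.1 and 15.5 in the wild-type libraries, with the groups overlapping. Gm20319 had at most 3.88 normalized counts in any library, and Il1bos has no row in the table.

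Levels of different genes were set in order per length, as normalized counts per kb of the union of annotated exons. In the knockout libraries the level was 1773 ± 931 for Il33, 970 ± 32 for Il18, 308 ± 43 for Il1r1 and 152 ± 79 for Il1rn (SD, n = 3). The levels of Il33 and Il18 overlapped between libraries and cannot be ordered, whereas Il18, Il1r1 and Il1rn followed each other without overlap. Il1rl1 (55.9 ± 19.3) and Il1b (52.3 ± 19.95) overlapped, Il1a (30.01 ± 18.3) overlapped Il1b, and Il1rap (7.01 ± 1.83) and Il1r2 (4.22 ± 2.35) were lowest and overlapped each other. In the wild-type libraries Il18 led at 1127 ± 328, followed without overlap by Il33 at 329 ± 122 and Il1r1 at 57.7 ± 11.1. The next levels in wild-type were 12 ± 2.55 for Il1rap, 10.2 ± 4.5 for Il1b and 8.87 ± 5.12 for Il1rl1, which overlapped in turn, as did Il1r2 at 3.798 ± 1.59, and Il1rn (1.90 ± 0.55) and Il1a (1.52 ± 2.12) came last. Il1rn had rank 4 of 9 in the knockout and rank 8 of 9 in wild-type. With the longest transcript as the length, Il1rn reached 328.5 ± 172 per kb in the knockout and then overlapped Il1r1 at 337 ± 47.

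**Figure D3:**
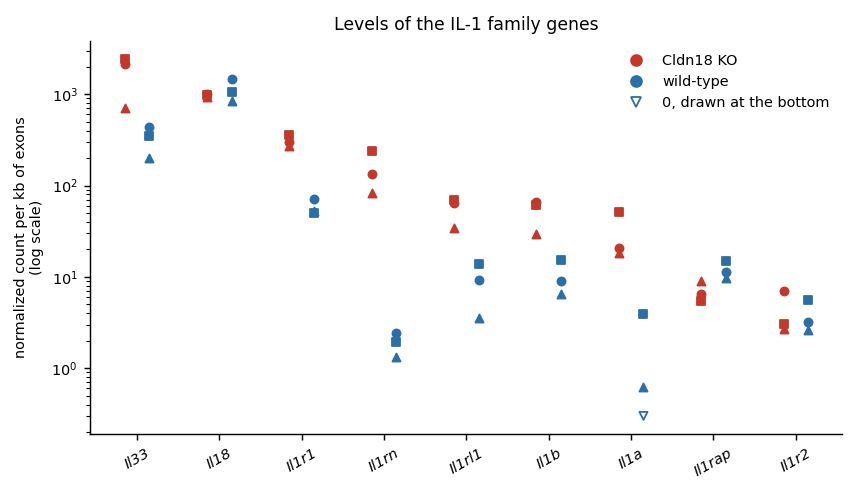
Levels of the 9 genes per kb of exons on a log axis, in order of the mean level in the Cldn18 knockout, with circles, triangles and squares for replicates 1, 2 and 3; the open triangle marks a value of 0. Il18 lies near 1000 in both groups, and the knockout points of Il1rn start at 83.5 while its wild-type points end at 2.43.

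Ratios within a library do not depend on the scaling between libraries. The ratio of normalized counts, not divided by length, of the antagonist gene Il1rn to the sum of Il1a and Il1b stood at 4.38, 5.01 and 6.08 in knockout replicates 1, 2 and 3, against 0.786, 0.545 and 0.289 in wild-type replicates 1, 2 and 3. Per kb of exons the same ratio was 1.52, 1.75 and 2.13 in knockout replicates 1, 2 and 3, against 0.271, 0.188 and 0.1 in wild-type replicates 1, 2 and 3. On either scale it was above 1 in each knockout library and below 1 in each wild-type library. The mean log2 ratio of normalized counts was 2.35 ± 0.24 in the knockout and -1.0 ± 0.73 in wild-type (SD, n = 3 each), a difference of 3.36 (exact permutation test, two-sided, p = 0.1, and no smaller p can be reached with 3 and 3 libraries; 0.15 adjusted over the 3 ratios). The ratio of decoy to signalling receptor counts, Il1r2 over Il1r1, not divided by length, stood at 0.00699, 0.003 and 0.00255 in the knockout libraries, against 0.0137, 0.0146 and 0.0338 in the wild-type libraries (log2 difference -2.33; exact permutation p = 0.1, adjusted 0.15). Here Il1r2 rests on 4 to 14 reads a library. Per kb that ratio was 0.00851 to 0.0233 in the knockout, against 0.0456 to 0.113 in wild-type. The ratio of Il1rl1 to Il33 counts overlapped between groups, at 0.0705, 0.114 and 0.0683 in the knockout libraries, against 0.0501, 0.0429 and 0.0948 in the wild-type libraries (log2 difference 0.48; exact permutation p = 0.3, adjusted 0.3).

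Promoter sequence is shown for Il1a, Il1b, Il33, Il1rn and Il1r1, the risen genes with a searched motif upstream of a start, so that the letters behind the counts below can be read; of the windows of Il33, the one with the match nearer to the start is given. RefSeq windows (GRCm38.p6, the mm10 assembly) of 250 bases before to 50 bases after a start were found for all 9 genes, 14 windows in all. They were searched on both strands for the NF-kB consensus, for the AP-1 motif TGANTCA and for the TATA box TATAAA. The 250 bases before the start are printed 5′ to 3′ on the gene's strand, with the matches in capitals.
Il1a, chr2:129309973-129310222, minus strand: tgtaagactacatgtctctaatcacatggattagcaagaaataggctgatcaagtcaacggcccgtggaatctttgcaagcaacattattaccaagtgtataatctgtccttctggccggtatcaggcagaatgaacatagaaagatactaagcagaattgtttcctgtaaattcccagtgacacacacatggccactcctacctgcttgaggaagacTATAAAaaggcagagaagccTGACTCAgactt
Il1b, chr2:129371140-129371389, minus strand: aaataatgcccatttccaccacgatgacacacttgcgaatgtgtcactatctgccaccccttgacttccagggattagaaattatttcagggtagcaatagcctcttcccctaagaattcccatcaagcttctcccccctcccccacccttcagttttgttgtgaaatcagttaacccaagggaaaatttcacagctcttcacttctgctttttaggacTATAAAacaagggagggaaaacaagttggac
Il33, downstream start, chr19:29945540-29945789, plus strand: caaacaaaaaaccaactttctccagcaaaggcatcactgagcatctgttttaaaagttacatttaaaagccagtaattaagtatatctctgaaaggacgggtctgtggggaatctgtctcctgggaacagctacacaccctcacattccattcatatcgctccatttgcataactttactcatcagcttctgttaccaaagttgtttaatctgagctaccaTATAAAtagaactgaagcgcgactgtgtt
Il1rn, upstream start, chr2:24336610-24336859, plus strand: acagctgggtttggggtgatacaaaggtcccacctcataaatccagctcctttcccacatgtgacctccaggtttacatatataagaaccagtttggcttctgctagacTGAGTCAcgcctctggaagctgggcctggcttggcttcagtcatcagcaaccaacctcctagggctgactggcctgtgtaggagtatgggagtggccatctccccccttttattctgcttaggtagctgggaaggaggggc
Il1r1, downstream start, chr1:40266336-40266585, plus strand: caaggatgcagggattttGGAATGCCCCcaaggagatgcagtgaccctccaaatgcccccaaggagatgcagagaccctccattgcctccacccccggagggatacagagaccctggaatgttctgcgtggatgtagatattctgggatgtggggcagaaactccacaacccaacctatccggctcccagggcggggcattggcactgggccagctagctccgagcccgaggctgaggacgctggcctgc

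In those sequences the TATA box lay 32 bases before the start of Il1a, 31 before that of Il1b and 29 before the downstream start of Il33. An AP-1 match, a motif that reads the same on both strands, lay 12 bases before the start of Il1a and 141 before the upstream start of Il1rn. The NF-kB consensus was matched once, 232 bases before the downstream start of Il1r1. Both Il1rl1 windows and those of Il1r2 and Il1rap held none of the 3 motifs. Over the 14 windows, 6 held the letters TATAAA on either strand, 2 the AP-1 motif and 1 the NF-kB consensus. The shares were 13.6%, 7.81% and 4.51% of 32851 RefSeq windows of the same length. TATAAA was counted at any position. In Il18 it lay 175 bases before the start, on the opposite strand, and at the upstream Il33 start 203 bases before. In the window of the most downstream Il1rn start it lay 14 bases after the start, on the opposite strand. Several windows belong to 1 gene and those of Il1rn overlap, so they are not independent, and a match is only a description of the letters.

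The other IL-1 family genes were read from a list written with earlier results of these data known. On chromosome 1 the receptor genes Il1r2, Il1r1, Il1rl2, Il1rl1, Il18r1 and Il18rap lie in a row in that order. Il1rl2, the IL-36 receptor gene, had 64.2, 45.8 and 91.3 normalized counts in knockout replicates 1, 2 and 3, against 33.05, 13.6 and 32.04 in wild-type replicates 1, 2 and 3 (log2 difference 1.37 ± 0.47 SE; limma adjusted p = 0.0372). Il18rap, the accessory chain of the IL-18 receptor, had 109, 33.2 and 70.2 in the knockout, against 12.2, 9.88 and 29.1 in wild-type (1.98 ± 0.57 SE; limma adjusted p = 0.0164). Both rose. Each call was lost without knockout replicate 1 or knockout replicate 3, and that of Il1rl2 also without wild-type replicate 2. Il18r1, which binds IL-18, was not called (0.65 ± 0.31 SE; limma adjusted p = 0.111), and neither was Sigirr, an inhibitory receptor gene, at 446 ± 36 in the knockout and 425 ± 34 in wild-type (SD, n = 3 each). The IL-36 subfamily and IL-38 genes Il1f5, Il1f6, Il1f8, Il1f9 and Il1f10 were too low to test, with at most 5.77 normalized counts in a knockout library and 31.1 in a wild-type library.

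The genes that process and release IL-1 family cytokines include the inflammasome. Of 22 listed, 21 were matched and 17 tested, of which 11 were higher, 0 lower and 6 not called (limma; 17 of 17 had a positive difference; median log2 difference 1.16, against -0.02 for all genes, of which 23.3% were higher and 21.5% lower). In 4 of the 17 (Casp1, Nlrp3, Aim2 and Mefv, none of them called) fewer than 3 wild-type libraries reached the filter value of 10. The share with a positive difference and the median thus rest in part on genes that passed through the knockout. Nlrc4, an inflammasome gene, had 1277, 1458 and 1533 normalized counts in knockout replicates 1, 2 and 3, against 441, 343 and 431 in wild-type replicates 1, 2 and 3 (log2 difference 1.81 ± 0.16 SE; limma adjusted p = 1.38e-05). Gsdmd, whose product forms the pores through which IL-1 beta leaves, had 2007, 1932 and 2517 in the knockout, against 820.1, 632 and 800.1 in wild-type (1.52 ± 0.16 SE). The inflammasome adaptor gene Pycard rose by 0.73 ± 0.19, the channel gene Panx1 by 1.49 ± 0.24 and the IL-1 alpha protease gene Capn2 by 1.21 ± 0.28 (log2 difference ± SE). In edgeR 11 and in DESeq2 10 were higher, and none was lower by any of the 3 tools or at an unadjusted limma p under 0.05. Casp1 itself was low, at 32.1, 22.2 and 28.8 in the knockout libraries, against 7.34, 8.64 and 13.6 in the wild-type libraries, and its adjusted p was 0.0518.

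Of 17 receptor signalling genes tested, 4 were higher, 2 lower and 11 not called (limma; median log2 difference 0.26). The share called higher is about the 23.3% of all genes, and the share called lower is under the 21.5% of all genes. The adaptor gene Myd88 rose by 0.97 ± 0.17, the kinase genes Irak2 by 1.01 ± 0.19 and Irak4 by 1.29 ± 0.24, and Ikbkb by 0.66 ± 0.14 (log2 difference ± SE). The ubiquitin ligase genes Peli1 and Peli2 fell, Peli2 to 185, 276 and 225 normalized counts in the knockout libraries, against 1802, 1631 and 1356 in the wild-type libraries (log2 difference -2.81 ± 0.19 SE; limma adjusted p = 2.35e-06). Irak1 (0.32 ± 0.12), Chuk (0.33 ± 0.12) and Traf6 (0.22 ± 0.15, log2 difference ± SE) were not called.

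Among NF-kB subunits and feedback genes, 9 of 12 tested were higher, 0 lower and 3 not called, beside 23.3% of all genes higher and 21.5% lower (limma; median log2 difference 0.71; 1 lower in DESeq2, 0 in edgeR and 1 at an unadjusted limma p under 0.05). Nfkbiz, which encodes a nuclear cofactor induced by IL-1, had 2365, 2866 and 1717 normalized counts in knockout replicates 1, 2 and 3, against 641, 675.5 and 916 in wild-type replicates 1, 2 and 3 (log2 difference 1.62 ± 0.21 SE; limma adjusted p = 0.000148). Zc3h12a, the gene of an RNase that degrades cytokine transcripts, rose by 1.42 ± 0.19, and the subunit genes Nfkb2 and Relb rose by 1.11 ± 0.20 and 1.05 ± 0.22 (log2 difference ± SE). Nfkbia, an inhibitor of NF-kB and itself a target, was not called and had 1112, 896 and 1221 in the knockout libraries, against 1158, 2334 and 1444 in the wild-type libraries.

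Genes known to be induced by IL-1 were higher in 9 of 11 tested, with 0 lower and 2 not called, of 17 matched, beside 23.3% of all genes higher (limma; median log2 difference 2.22; none lower in edgeR, in DESeq2 or at an unadjusted limma p under 0.05). In 7 of the 11 (Cxcl1, Cxcl5, Ccl2, Ccl7, Ccl20, Nos2 and Il11) fewer than 3 wild-type libraries reached the filter value of 10, so the count and the median rest in part on genes that passed through the knockout. Icam1, an adhesion molecule gene, had 378, 289 and 481 normalized counts in knockout replicates 1, 2 and 3, against 115, 53.1 and 48.55 in wild-type replicates 1, 2 and 3 (log2 difference 2.47 ± 0.35 SE; limma adjusted p = 0.000289). The chemokine genes Cxcl1, Cxcl5, Ccl2, Ccl7 and Ccl20 rose and were low in both groups, with means of 24.97 to 80.8 in the knockout and 2.28 to 17.1 in wild-type. Ptges, a prostaglandin E synthase gene, rose by 1.30 ± 0.27, whereas Ptgs2, the inducible cyclooxygenase gene upstream of it, was at 53.0 ± 3.2 in the knockout and 49.1 ± 11.5 in wild-type (SD, n = 3 each) and was not called. Il6, Tnf, Cxcl2, Csf2, Csf3 and Lcn2 were too low to test, and Il6 had at most 1.48 normalized counts in a knockout library and 3.88 in a wild-type library.

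Partners of the IL-33 pathway gave 2 higher, 1 lower and 4 not called of 7 tested, from 13 matched (limma; median log2 difference 0.26), which is close to the 23.3% higher and 21.5% lower of all genes. Areg, a growth factor gene that IL-33 responsive cells use and that epithelium also makes, had 4165, 2569 and 3658 normalized counts in the knockout libraries, against 36.7, 105 and 60.2 in the wild-type libraries (log2 difference 5.76 ± 0.33 SE; limma adjusted p = 9.53e-07). The type 2 cytokine genes Il13 and Il5 were too low to test. Il13 had 2.83, 0 and 7.69 normalized counts in the knockout libraries, against 14.7, 0 and 1.94 in the wild-type libraries. Il5 had 0, 1.48 and 1.92 in the knockout libraries, against 1.22, 0 and 15.5 in the wild-type libraries, and Il4, at 7.56 to 19.2 in the knockout and 7.41 to 23.3 in wild-type, was not called (-0.30 ± 0.66 SE; limma adjusted p = 0.737). No difference in these 3 cytokine genes was detectable at this depth. Rora, a transcription factor gene that type 2 innate lymphoid cells need, fell by 1.13 on the log2 scale, and the receptor chain gene Il4ra rose by 0.59 ± 0.21 (log2 difference ± SE), a call lost without any 1 of 4 libraries (knockout replicates 1 and 3, wild-type replicates 2 and 3).

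**Figure D4:**
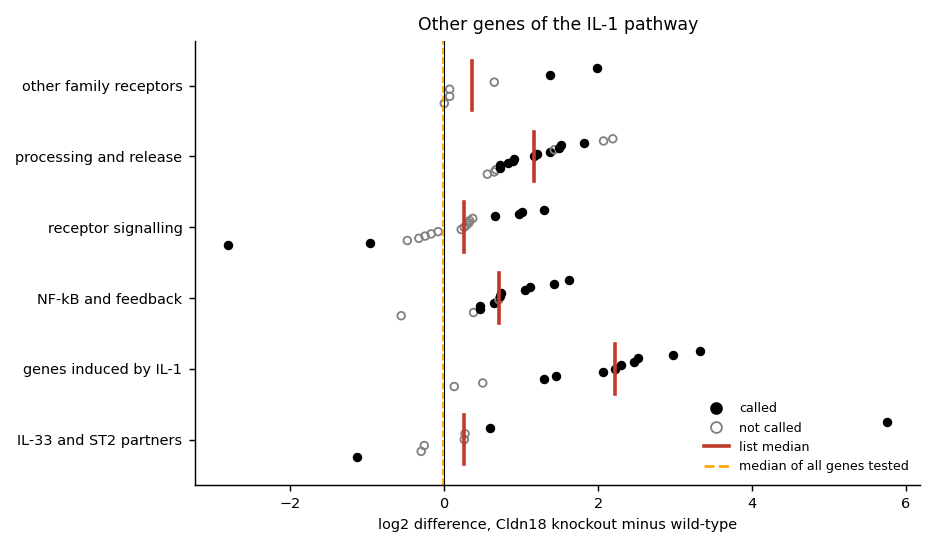
Log2 differences (Cldn18 knockout minus wild-type) of the tested genes in 6 lists of the IL-1 pathway, 1 point per gene, filled where called at adjusted p under 0.05; the red bar is the list's median and the dashed line the median of all genes tested. The median is 2.22 for genes induced by IL-1 and 1.16 for processing and release, and Peli2 is the point at -2.81.

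Over these lists 37 of 70 tested genes were higher and 3 lower, beside 23.3% and 21.5% of all genes. The 2 shares are not a fair comparison, because the lists were written with earlier results of these data known. Some of the 70 also passed the filter with fewer than 3 wild-type libraries at 10, among them 7 genes induced by IL-1 and 4 of processing and release. Of the 40 calls, 28 held when any single library was left out. The other 12 were Il1rl2, Il18rap, Casp4, P2rx7, Nfkb1, Rel, Rela, Nfkbib, Cxcl1, Ccl2, Il11 and Il4ra. Without wild-type replicates 2 and 3 together, 28 genes were called higher and 2 lower.

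Marker lists of immune and stromal cell types did not move in 1 direction. The sums of the macrophage and monocyte, T and NK cell, and B and plasma cell lists were higher in the knockout without overlap. Those of the mast cell and basophil, neutrophil, dendritic cell, eosinophil and fibroblast lists overlapped between groups, and the endothelial sum was lower without overlap. The part of these cells in the family's differences was not tested. The counts called in each list stand beside 23.3% of all genes higher and 21.5% lower (limma). Single genes were without overlap between groups in 55.2% of those tested. Of the higher markers, Mcpt4, Csf3r, Ltf, Cd209a and Ivl had fewer than 3 wild-type libraries at 10, so they passed the filter through the knockout. Of 14 macrophage and monocyte markers matched, all with reads in each library, 8 were higher and 1 lower, and their sum was 5942 to 10563 normalized counts in the knockout, against 3152 to 4442 in wild-type. Lyz2 had 2034, 1601 and 3415 in the knockout libraries, against 808, 682 and 478 in the wild-type libraries, while Csf1r was not called. Of 12 mast cell and basophil markers, 10 were tested, with 5 higher and 1 lower, and the sum was 2508 to 3284 in the knockout, against 2440 to 3273 in wild-type. The mast cell protease gene Mcpt1 had 732, 418 and 919.8 in the knockout libraries, against 51.4, 17.3 and 358 in the wild-type libraries, and Kit, also a gene of other cells, was the lower one. The sums of the whole list thus overlapped. Leaving out Kit, the 1 marker called lower, gave 2223 to 3074 in the knockout, against 908 to 1455 in wild-type, with no overlap. That comparison was added after the values were seen, so nothing is concluded from it. In edgeR 4 markers of the list were higher and 1 lower, and in DESeq2 3 were higher and 1 lower. Mast cells carry ST2, and their part in the Il1rl1 difference was not tested. Fcer1a was at 0 in wild-type replicates 1 and 2, and Mcpt4 was at 0 in wild-type replicate 3.

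Of 10 neutrophil markers 2 were tested and both were higher by limma. Fewer than 3 wild-type libraries reached 10 in both, so they were tested through the knockout, where they were high. Over the list edgeR gave 2 higher and 0 lower, and DESeq2 gave 1 higher and 1 lower. The untested Cxcr2 had 0, 7.39 and 0 in the knockout libraries, against 7.34, 14.8 and 23.3 in the wild-type libraries. Csf3r had 65.2, 31.8 and 33.6 normalized counts in the knockout libraries, against 7.34, 17.3 and 19.4 in the wild-type libraries, and Ltf had 19.8, 32.5 and 56.7 in the knockout libraries, against 2.45, 4.94 and 16.5 in the wild-type libraries. Ly6g was at 0 in every library and S100a9 and Ngp at 0 in each knockout library, and the list had a sum of 82.0 to 106.7 in the knockout, against 59.3 to 83.5 in wild-type. Of 14 T and NK cell markers 4 were tested and 0 called by limma. Only 2 of the 4 (Cd3g and Cd4) had an unadjusted limma p under 0.05, and 0 were called by edgeR or by DESeq2. The sum of the T and NK cell list was 162.5 to 235 in the knockout, against 114 to 137 in wild-type. Of 4 B and plasma cell markers tested, Igha and Pou2af1 were higher by limma, and over the list 2 were higher in edgeR and 1 in DESeq2. None was lower by limma, edgeR or DESeq2 or at an unadjusted limma p under 0.05. Igha overlapped between groups, with a lowest knockout value of 85.5 and a highest wild-type value of 111. The list summed to 348 to 853 in the knockout, against 169.9 to 277 in wild-type, with no overlap. Of 7 dendritic cell markers tested 2 were higher, Itgax (log2 difference 2.08) and Cd209a, and Zbtb46 was lower, with sums of 375 to 428 in the knockout, against 285 to 419.9 in wild-type. Eosinophil markers were too low to test, with sums of 7.56 to 20.2 in the knockout, against 16.05 to 29.4 in wild-type. Of 10 fibroblast markers 4 were higher and 1 lower, beside 23.3% and 21.5% of all genes, with an overlapping sum of 29792 to 51813 in the knockout, against 25603 to 42038 in wild-type. Endothelial markers were lower in 9 of 11 tested, with none higher by limma, edgeR or DESeq2 or at an unadjusted limma p under 0.05, and summed to 4310 to 5849 in the knockout, against 10028 to 16101 in wild-type.

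Epithelial markers moved as well. Of 14 stratified squamous markers tested 2 were higher and 5 lower, beside 23.3% and 21.5% of all genes. Sprr1a, a cornified envelope gene, had 6295, 4204 and 13806 in the knockout libraries, against 113, 98.8 and 124 in the wild-type libraries, while the basal keratin gene Krt5 had 76.5, 57.6 and 51.9 in the knockout libraries, against 220.3, 3219 and 1068 in the wild-type libraries. Wild-type replicate 2, the library with the highest Krt5, had the lowest Il1b, Il33, Il1rn and Il1rl1 of the wild-type libraries. Of 5 surface and pit cell markers 3 were lower, and knockout replicate 2, the lowest of the knockout libraries in Il1a, Il1b, Il33, Il1rn, Il1r1 and Il1rl1, also had the lowest surface and pit sum (332164, with 577647 and 571980 in replicates 1 and 3). All 7 parietal markers were lower, with a sum of 2784 to 9320 in the knockout, against 398254 to 517761 in wild-type, and within the knockout that sum was highest in replicate 2. All 5 chief cell markers tested were lower too, with a sum of 39918 to 74316 in the knockout, against 1732844 to 2789966 in wild-type.

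**Figure D5:**
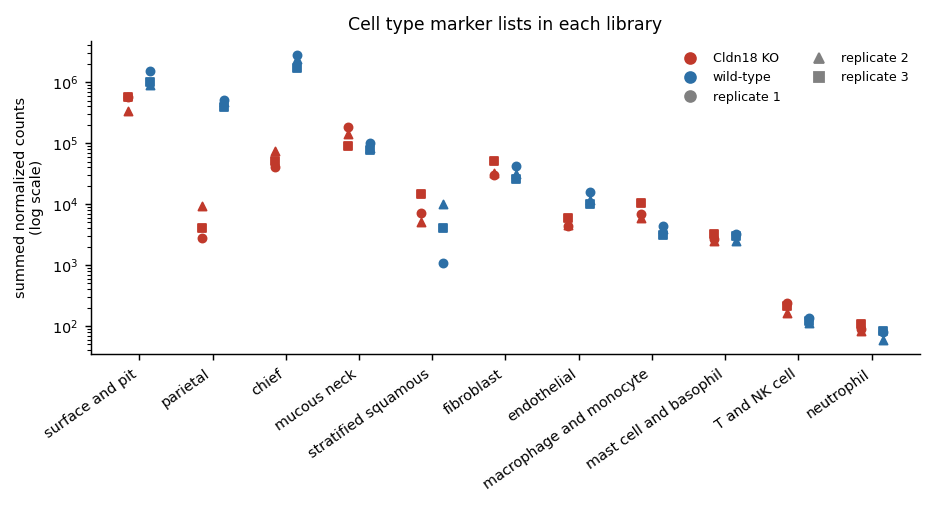
Summed normalized counts of fixed cell type marker lists in each library on a log axis, with Cldn18 knockout points left of wild-type points and symbols by replicate number. Parietal and chief sums lie lower in the knockout, macrophage and monocyte sums lie higher, and neutrophil sums lie at or below 106.7 in every library.

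The genes most like each member in their profile over the 6 libraries were found by the root mean square difference of centred log2 values among 13245 genes with a mean of at least 50. Sprr1a was nearest to Il1rn (0.204) and was followed by Vnn1 (0.219), the gene of a pantetheinase, with 1912, 1067 and 3412 normalized counts in the knockout libraries, against 44.1, 22.2 and 21.4 in the wild-type libraries. Lgals4, a galectin gene, was nearest to Il33 (0.292), and Adamts4, a matrix protease gene, was among the nearest to Il1b (0.265). Kirrel3 (0.0658) and Eya2 (0.0895) were nearest to Il1r1, and Sprr2a3 was nearest to Il1rl1 (0.266). Celf4 was nearest to Il1a (0.456), Zfp61 to Il18 (0.0437) and Slc38a6 to Il1rap (0.0561). With so many genes and 6 libraries these are descriptions only.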

How the data were processed

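The deposited values are a signal, gene counts divided by a factor per library, which the authors made with STAR, featureCounts and DESeq on mm10, per the submitters' processing notes (tool roles, versions, annotation and strandedness: not given in the sources used here). Whole reads could be recovered by dividing each library by its step, with 100% of values whole to 0.05 reads. In 27 of the 38720 rows a date stands in place of a symbol. The authors' deposited comparison table covers 23086 genes and gives group means, p-values and a ratio of the means (fold change).

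The test was limma 3.58.1 (lmFit, eBayes with a mean trend, R 4.3.3), two-sided, on log2(normalized count + 1), with Benjamini-Hochberg adjustment over 17432 genes with at least 10 in at least 3 of 6 libraries, and calls were made at an adjusted p under 0.05. Differences on this scale can be too small or too large for low genes. The added 1 shrinks them, while a very low value in 1 library can pull the mean of the logs away from the log of the mean. For Gata3 the log2 difference was 0.26, although the ratio of the group means (knockout over wild-type) was 0.781. In 10 simulated datasets modelled on these libraries (16963 genes on average, 200 changed) it found 34% of 2-fold and 76.2% of 4-fold changes, and 6.71% of calls were false. In the data 44.7% of genes were called, a far larger share than was changed in the simulation. The simulated rates therefore need not hold for the data. Alternatives used edgeR 4.0.16 and DESeq2 1.42.0 on recovered reads, other scalings, filters and pseudocounts, and fewer libraries, with the tested genes kept. Exon lengths and coordinates come from GENCODE vM21 (mm10). No label pairs the libraries by replicate number, so no block was used in the main test.

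The members, lists and tests were chosen with earlier results of these data known, so no list was tested and no p was adjusted over a list. By rule the named genes were the 9 members, Cldn18, genes of the pathway lists and, for each tested member, the 2 nearest genes by profile over the 6 libraries. The single pathway, marker and nearest genes given with values were picked from these after their values were seen. Some listed symbols matched no row and are not analysed here.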

Additional observations from a re-analysis of the deposited data

How the results depend on the processing

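Of the 6 higher members, Il1b, Il1rn, Il1r1 and Il1rl1 kept their call in each of 21 alternatives and Il1a in the 20 that tested it (a mean of at least 50 leaves it out). Il33 lost it only without wild-type replicates 2 and 3 together (1.82, adjusted p = 0.0511). With 1 library left out the log2 differences spanned 3.61 to 5.18 for Il1a, 2.02 to 2.66 for Il1b, 1.98 to 2.88 for Il33, 5.70 to 6.45 for Il1rn, 2.31 to 2.57 for Il1r1, 2.22 to 3.18 for Il1rl1, -0.97 to -0.62 for Il1rap, -0.37 to 0.04 for Il18 and -0.82 to -0.55 for Cldn18. Over all its 20 alternatives Il1a spanned 2.34 to 5.76, so the size of its difference is less settled than its direction. Il18 was 0.04 without wild-type replicate 1 and was called lower without wild-type replicates 2 and 3 (-0.61). Il1rap was called lower with upper quartile scaling (-0.91, adjusted p = 0.0487), array weights (-0.91, adjusted p = 0.0210), and without knockout replicate 2 or wild-type replicate 2. Lower members thus numbered 1 in 5 alternatives and 0 otherwise, and 0 to 1 with 1 library left out. Cldn18 (-0.71) misses a size threshold of 1 and was -0.60 without knockout replicate 1.

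A size threshold of 1 on the log2 difference removes smaller changes by design, and under it 1957 genes and 24 pathway genes were higher. Lower genes numbered 2488 without wild-type replicates 2 and 3 (fewer samples) and 2025 in the authors' deposited table (the cause was not tested). Lower pathway genes numbered 7 with upper quartile scaling and 7 with quantile normalization, and 3 to 5 with 1 library left out. The median of all genes was -0.02 in the main scaling, -0.15 with upper quartile scaling, 0.10 with quantile normalization and -0.21 in DESeq2. Among uncalled genes, Sigirr turned to -0.07 with upper quartile scaling and -0.01 with array weights, Ptgs2 to -0.00 with that scaling and -0.03 without wild-type replicate 2 (-0.03 to 0.30 with 1 library left out), and Il4 to 0.23 with quantile normalization and 0.00 without knockout replicate 1 (-0.77 to 0.00 with 1 library left out); the cause was not tested. The 3 ratios kept their sign in the 8 alternatives of each, but many of these could not have changed it. Leaving out 1 library cannot reverse a ratio whose groups do not overlap. Division by length shifts a ratio of 2 genes alike in every library.

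With the replicate block the 6 members were still called and none was lower (Il33 2.31, Il1rap -0.78 with adjusted p = 0.0957), with 3726 genes higher and 3626 lower. Of the other 50 genes followed, Casp4 alone lost its call (1.16, adjusted p = 0.076). For the 6 called members the adjusted p was lower with the block (limma). It was 2.37e-07 for Il33, against 0.00141 without it, and 3.93e-06 for Il1rl1, against 0.000808. That of Il1rap was higher, at 0.0957 against 0.06. Over all tested genes the deviations of libraries with the same number correlated at -0.00366, 0.0214 and -0.173. These show no general pairing, and whether single genes share structure by replicate number was not tested.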
